A study of Mus musculus with 31 samples.

Results

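The genes described here are 53 mouse genes that cells use to enter, drive and finish mitosis. They were chosen as a list of symbols with earlier results of these data known. Shares over all genes given below are therefore background and not an independent test. The symbols were matched to the Entrez identifiers of a table of read counts for 27179 genes. All 53 matched by symbol, and all 53 passed the filter on low counts, which left 10275 genes for testing. The table covers 31 RNA-seq libraries of mouse NK (natural killer) cells that had been sorted, lymphocytes of the innate immune system that can kill infected or transformed cells. The TGFBRII KO cells carry a knockout of the type II receptor for transforming growth factor beta (gene Tgfbr2). The CIS KO cells carry a knockout of CIS (gene Cish), which dampens signalling by the interleukins that drive NK cell growth. WT cells carry neither. Cells of each genotype were unstimulated, or had been given the cytokine TGFB1 for 4 h or 24 h. TGFBRII KO had 3 libraries at each of the 3 times, CIS KO had 4 at each, and WT had 4 unstimulated, 2 at 4 h and 4 at 24 h. The comparisons ask how TGFB1 changed these transcripts and how that change depended on the receptor and on CIS.

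The labels number the libraries of a group as biological replicates and give no animal, strain, age, organ or way of deletion, so p-values measure the spread between these libraries. Unstimulated cells are the only baseline analysed here, so each response holds any effect of time in culture. In bulk RNA, fewer dividing cells and less RNA per dividing cell cannot be told apart. Total counts ran from 297561 to 1403005 per library with a median of 736193, and the shallowest library was WT at 4 h replicate 1. Levels are given as CPM, the reads of a gene scaled to a common library total after TMM, a scaling that assumes most genes do not change. Cish stood at 25.2 ± 6.76 CPM in unstimulated CIS KO and 158 ± 21.6 CPM in WT (SD, n = 4 each), and whole-gene counts of Tgfbr2 do not check the deletion, at 230 ± 8.18 CPM in TGFBRII KO (n = 3) and 213 ± 26.6 CPM in WT (n = 4). The genotypes also differed in Xist, made from the inactive X chromosome, at 12.6 to 131 CPM in TGFBRII KO, 0 to 5.22 CPM in CIS KO and 91.1 to 222 CPM in WT, and the part of this in the results was not tested. The summed CPM of 12 NK marker genes was 2752 to 6092, though the NK marker Itga2 was at most 12.6 CPM. The sum of 11 T cell markers was 371 to 661 CPM, mostly from Cd3g (106 to 182 CPM), Trbc1 (88.3 to 173), Cd3d (47 to 127) and Bcl11b (7.13 to 190), while Cd4, Cd8a, Cd8b1 and Cd5 were at most 4.12 CPM in every library. The sum of 10 myeloid markers was 67.9 to 198 CPM, mostly from Itgam (52.2 to 179), with Lyz2 at most 1.27 CPM and Ly6g, S100a9, Csf3r and Flt3 at 0. The sum of 7 ILC2 and ILC3 markers was 126 to 301 CPM, mostly from Gata3 (112 to 253), with Il5 and Il22 at 0. The sum of 6 stromal markers was 262 to 487 CPM, mostly from Pecam1 (182 to 347) and Epcam (50.5 to 140), with Krt8 at 0 and Col1a1 at most 1.48 CPM. The sums of 8 B cell and 7 erythroid and platelet markers were at most 14.8 and 8.63 CPM. Where the sums of NK, T cell, myeloid, ILC2 and ILC3 or stromal markers did not overlap between the groups of a comparison, they stand beside its result below. Their part in it was not tested.

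Cells enter mitosis when Cdk1, bound to A and B cyclins, is switched on by Cdc25 phosphatases. Spindle motors and microtubule-binding proteins build the spindle, kinetochores attach chromosomes to it, and the spindle checkpoint holds back the anaphase-promoting complex (APC/C) until every kinetochore is attached. Transcripts of these genes are made mainly in G2 and mitosis, so in lymphocytes that divide in response to growth cytokines they mark cycling cells. TGF-β is known to hold back the growth of NK cells.

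The promoters of such genes are known for CCAAT boxes, which bind the factor NF-Y, and for the cell cycle genes homology region, written TTTGAA or TTTAAA, through which complexes with the Mybl2 and Foxm1 proteins act. RefSeq promoters of GRCm38.p6, from 250 bases before to 50 bases after the start, were held for 42 of the 53 genes. Both strands were searched, and TTTAAA reads the same on both. A gene was counted once, where any of its promoters held the motif. TTTGAA was found for 30 of the 42 genes (71.4%), against 14.4% of 8040 genes tested that had a promoter and 20.2% of 27025 genes in all. TTTAAA was in 9 of 42 (21.4%), against 10.9% and 14.9%. CCAAT was in 30 of 42 (71.4%), against 43.3% and 41.1%. CCAAT together with TTTGAA or TTTAAA was in 27 of 42 (64.3%), against 9.23% and 12.2%. At least 2 CCAAT were in 19 of 42 (45.2%), against 17.6% and 13.3%. A match is a run of letters and does not show that a factor binds there.

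The sequences below run 5′ to 3′ on the gene's strand from 130 bases before to 20 bases after the start, with the motifs in capitals. A CCAAT on the opposite strand appears there as its reverse complement, and so does a TTTGAA. No other letters are in capitals. The first 8 belong to genes whose transcripts are described below and hold both kinds of motif. Cyclin B1 and B2 are at chr13:100786467-100786616, minus strand and chr9:70421535-70421684, minus strand. Cdk1 is at chr10:69352893-69353042, minus strand, Plk1 at chr7:122159305-122159454, plus strand and Cdc20 at chr4:118437324-118437473, minus strand. Ube2c is at chr2:164769799-164769948, plus strand, Top2a at chr11:99024170-99024319, minus strand and Kif11 at chr19:37376252-37376401, plus strand.
Ccnb1: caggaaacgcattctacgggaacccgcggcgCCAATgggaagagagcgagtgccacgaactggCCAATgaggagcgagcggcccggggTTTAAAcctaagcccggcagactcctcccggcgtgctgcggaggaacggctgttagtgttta
Ccnb2: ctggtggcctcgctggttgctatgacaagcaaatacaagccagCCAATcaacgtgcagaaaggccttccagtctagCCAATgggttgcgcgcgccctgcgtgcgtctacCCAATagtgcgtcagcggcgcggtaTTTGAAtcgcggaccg
Cdk1: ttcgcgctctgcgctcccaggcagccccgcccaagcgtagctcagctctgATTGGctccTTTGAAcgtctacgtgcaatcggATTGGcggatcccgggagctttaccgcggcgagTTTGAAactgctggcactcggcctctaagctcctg
Plk1: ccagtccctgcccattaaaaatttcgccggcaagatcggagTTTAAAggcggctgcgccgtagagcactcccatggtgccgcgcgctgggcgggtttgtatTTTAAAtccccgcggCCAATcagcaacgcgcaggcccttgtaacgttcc
Cdc20: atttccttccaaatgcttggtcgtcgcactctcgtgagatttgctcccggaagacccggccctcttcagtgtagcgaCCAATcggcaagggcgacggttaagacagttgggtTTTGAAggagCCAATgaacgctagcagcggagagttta
Ube2c: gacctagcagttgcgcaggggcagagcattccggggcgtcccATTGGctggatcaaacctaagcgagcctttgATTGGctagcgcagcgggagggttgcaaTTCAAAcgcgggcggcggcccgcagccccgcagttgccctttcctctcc
Top2a: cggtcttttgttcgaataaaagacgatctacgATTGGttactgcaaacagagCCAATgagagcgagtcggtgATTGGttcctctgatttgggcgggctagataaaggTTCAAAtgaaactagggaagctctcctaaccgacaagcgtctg
Kif11: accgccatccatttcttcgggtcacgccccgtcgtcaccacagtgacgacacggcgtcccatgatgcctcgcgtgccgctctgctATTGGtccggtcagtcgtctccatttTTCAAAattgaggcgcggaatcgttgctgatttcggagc

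The next 4 are shown because their transcripts lie at the ends of the range below. Bub1 (chr2:127831840-127831989, minus strand) and Mybl2 (chr2:163054505-163054654, plus strand) had the largest falls in WT cells at 24 h, and Ncaph (chr2:127133935-127134084, minus strand) was among the 3 genes with the largest difference of response between CIS KO and WT of those called. Ncapd2 (chr6:125191567-125191716, minus strand), a subunit of the same condensin complex as Ncaph, had the value nearest 0 and holds both kinds of motif. Bub1 holds CCAAT and neither TTTGAA nor TTTAAA in the 300 bases searched, and Mybl2 and Ncaph hold none of the 3 motifs. Whether motifs go with the size of change was not tested, and Mybl2 rests on 0 to 18 counts per library.
Bub1: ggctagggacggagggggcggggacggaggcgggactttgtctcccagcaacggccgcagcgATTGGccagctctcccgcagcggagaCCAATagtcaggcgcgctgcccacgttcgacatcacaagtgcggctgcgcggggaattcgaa
Mybl2: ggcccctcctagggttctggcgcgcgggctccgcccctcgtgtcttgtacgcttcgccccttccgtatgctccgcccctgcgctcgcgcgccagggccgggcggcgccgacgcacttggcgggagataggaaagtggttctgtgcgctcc
Ncaph: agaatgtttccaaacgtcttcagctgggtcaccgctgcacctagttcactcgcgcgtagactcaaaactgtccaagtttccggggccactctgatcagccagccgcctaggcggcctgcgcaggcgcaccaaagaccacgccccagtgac
Ncapd2: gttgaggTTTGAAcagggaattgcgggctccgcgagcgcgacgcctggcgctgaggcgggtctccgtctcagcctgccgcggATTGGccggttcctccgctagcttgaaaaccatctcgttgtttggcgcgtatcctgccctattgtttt

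In TGFBRII KO cells part of the set was lower at 4 h of TGFB1. At 24 h the lowest summed level, 7885 CPM, was just above the highest unstimulated one of that genotype, 7876 CPM. In that comparison 0 of 53 genes passed the threshold given below. In CIS KO cells most of the set was lower at 4 h and also at 24 h. In WT cells both libraries at 4 h had sums below every unstimulated WT library, and the whole set was lower at 24 h. Summed over the 53 genes, TGFBRII KO libraries held 7136, 6258 and 7876 CPM unstimulated, 5983, 5921 and 6226 CPM at 4 h and 7885, 8920 and 8196 CPM at 24 h. CIS KO libraries held 7125, 6695, 6608 and 7379 CPM unstimulated, 4827, 4258, 5025 and 4028 CPM at 4 h and 4043, 4872, 3993 and 4234 CPM at 24 h. WT libraries held 7948, 8793, 8100 and 7159 CPM unstimulated, 6001 and 6565 CPM at 4 h and 3059, 2867, 2218 and 1982 CPM at 24 h. The 4 WT libraries at 24 h are the lowest of all 31, and the 4 CIS KO libraries at 24 h lie between them and every TGFBRII KO library. At 24 h the mean sum stood at 118% of its unstimulated value for TGFBRII KO, 61.6% for CIS KO and 31.6% for WT.

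**Figure D1:**
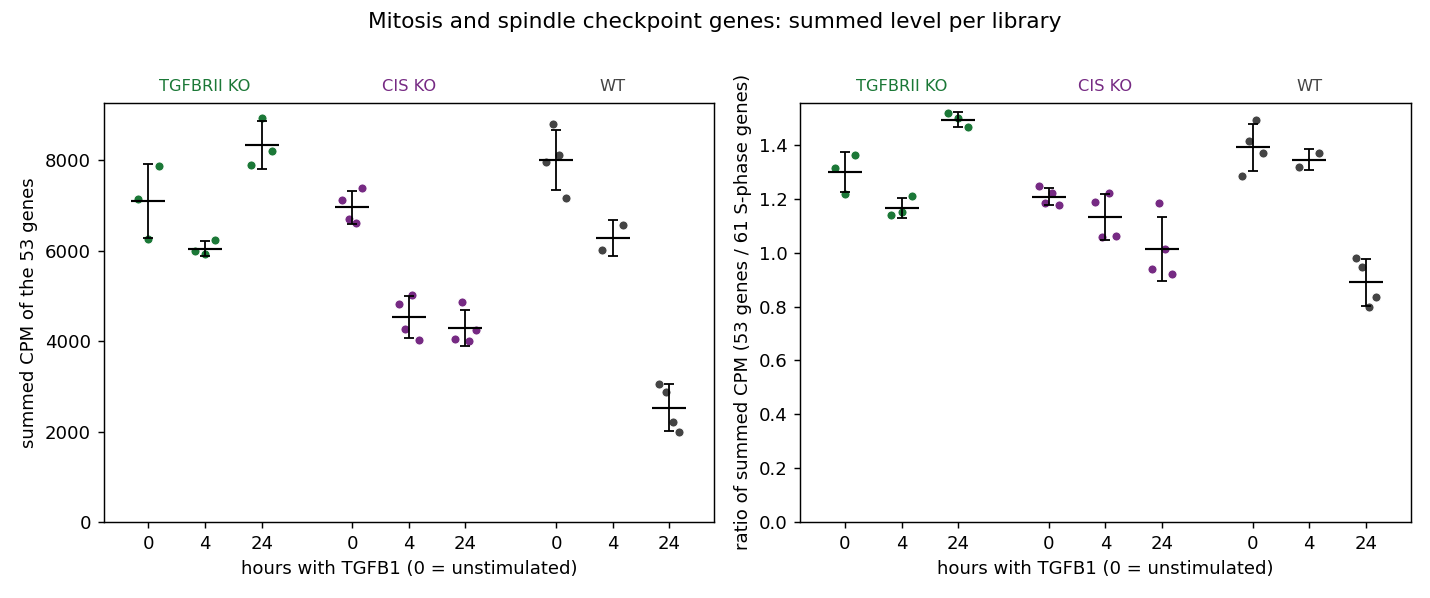
Summed CPM of the 53 genes (left) and its ratio to the summed CPM of 61 S-phase genes (right) in each of 31 libraries, by genotype and hours with TGFB1. Points are libraries, the bar is the mean and the whisker 1 SD. The WT libraries at 24 h lie lowest in the left panel, at 1982 to 3059 CPM, and have ratios of 0.797 to 0.979 in the right panel, where CIS KO at 24 h reaches down to 0.922.

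A gene was called in a comparison at an adjusted p under 0.05 in edgeR's quasi-likelihood test, with Benjamini-Hochberg adjustment over 10275 genes, and values after ± are standard errors of the log2 fold change. In TGFBRII KO at 24 h against unstimulated, 0 of 53 were called by edgeR's quasi-likelihood test and 0 by DESeq2. Of all genes 0.0195% were called in either direction by edgeR. An unadjusted edgeR p under 0.05 was found for 10 of 53 and for 730 of all 10275 genes tested. The median log2 fold change was 0.20, against 0.01 for all genes tested, and 5 of 53 had a negative value. With the 6 TGFBRII KO libraries fitted alone, 4 genes were called higher and 1 lower. The summed ILC2 and ILC3 markers were 126 to 169 CPM at 24 h and 188 to 209 CPM unstimulated. In CIS KO at 24 h, 40 of 53 genes fell and 0 rose, where 11.7% of all genes fell. The median was -0.73 (range -1.21 to 0.06), against 0.04 for all genes tested, and 7 genes had a value of -1 or lower. Of the genes called, Cdc25c, Spc24 and Nuf2 fell most, with values given below, and the lowest value of all belonged to Kif18b, which was not called (-1.21 ± 0.51, adjusted p = 0.078). The libraries at 24 h lay below all unstimulated ones for 33 of 53 genes (9.96% of all genes tested). In the same comparison the summed myeloid markers were 67.9 to 114 CPM at 24 h and 135 to 139 CPM unstimulated.

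In WT at 24 h, all 53 genes fell and 0 rose, where 11.5% of all genes tested fell. The median log2 fold change of the 53 was -2.06 (range -3.09 to -0.74), and that of all genes tested was 0.03. All 4 libraries at 24 h lay below all 4 unstimulated ones for 53 of 53 genes, as they did for 11.9% of all genes tested. The fall was at least 1 on the log2 scale for 48 genes and at least 2 for 29. In the same comparison the summed T cell markers were 454 to 532 CPM at 24 h and 544 to 572 CPM unstimulated, and the summed stromal markers 311 to 334 CPM at 24 h and 262 to 305 CPM unstimulated.

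**Figure D2:**
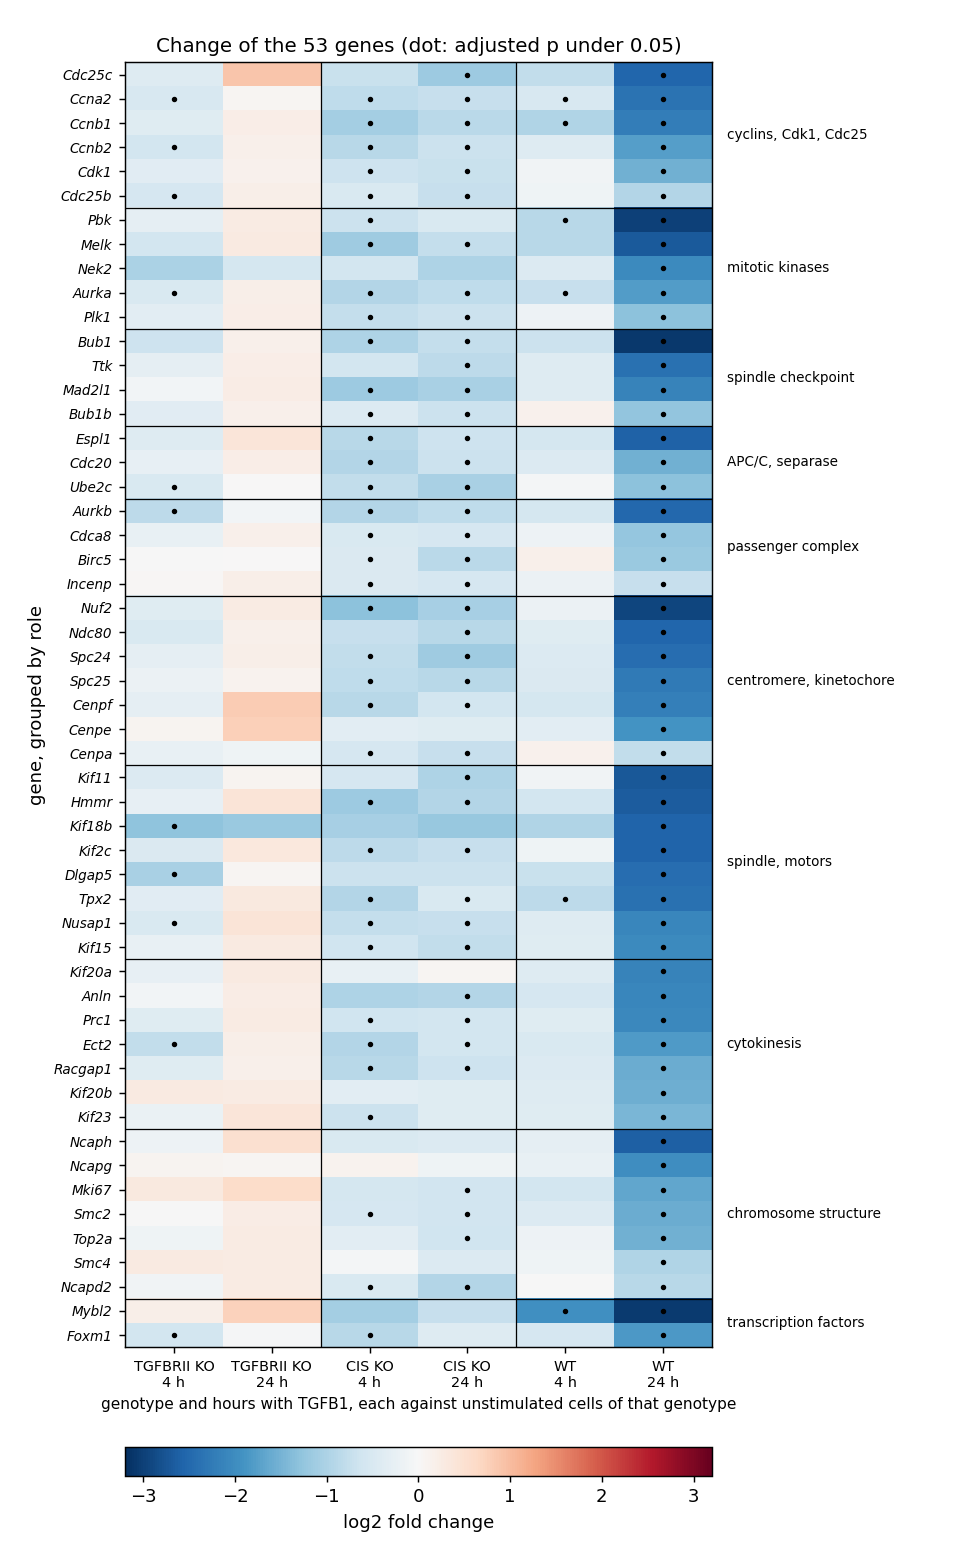
Log2 fold change of each of the 53 genes (rows, grouped by role and ordered within a role by the WT 24 h value) against unstimulated cells of the same genotype, at 4 h and 24 h of TGFB1. Dots mark adjusted p under 0.05. No cell of the TGFBRII KO 24 h column carries a dot, the CIS KO columns are mostly pale blue, and the WT 24 h column is blue with a dot in every row.

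The cyclins, Cdk1 and its Cdc25 activators fell in WT at 24 h, 6 of 6, with a median of -1.99. Ccna2 (Entrez 12428; chromosome 3, 36564865 to 36573038 in GRCm38.p6) encodes cyclin A2, which partners Cdk2 and Cdk1. Its TGFBRII KO libraries held 233, 215 and 221 CPM unstimulated, 176, 151 and 139 CPM at 4 h and 195, 274 and 227 CPM at 24 h. The CIS KO libraries held 185, 176, 181 and 211 CPM unstimulated, 129, 95.1, 101 and 96.4 CPM at 4 h and 115, 123, 96.7 and 110 CPM at 24 h, and the WT libraries 244, 242, 219 and 191 CPM unstimulated, 120 and 174 CPM at 4 h and 53.7, 50.7, 38.7 and 26.7 CPM at 24 h. Every CIS KO library at 24 h was below every unstimulated one and above every WT library at 24 h. The log2 fold change at 24 h was 0.06 ± 0.13 in TGFBRII KO (adjusted p = 0.994), -0.75 ± 0.14 in CIS KO (adjusted p = 1.14e-04) and -2.37 ± 0.15 in WT (adjusted p = 2.81e-14).

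Cdk1 itself (Entrez 12534; chromosome 10, 69335146 to 69352912), the kinase that drives entry into mitosis, changed less. Cdk1 stood at 190, 186 and 204 CPM unstimulated, 147, 157 and 145 CPM at 4 h and 202, 216 and 221 CPM at 24 h in the TGFBRII KO libraries. Cdk1 in CIS KO stood at 224, 208, 196 and 207 CPM unstimulated, 122, 126, 140 and 141 CPM at 4 h and 132, 99.8, 120 and 176 CPM at 24 h, and the WT libraries 205, 210, 162 and 189 CPM unstimulated, 214 and 154 CPM at 4 h and 73.9, 74.5, 62.6 and 47.5 CPM at 24 h. One CIS KO library at 24 h, replicate 4, stood above the other 3, and all 4 were above the WT libraries. Cdk1 fell by 0.71 ± 0.13 on the log2 scale in CIS KO and fell by 1.54 ± 0.14 in WT. Ccnb1 (Entrez 268697; chromosome 13, 100778739 to 100786486), cyclin B1, the main partner of Cdk1 in mitosis, fell by 0.87 ± 0.17 in CIS KO and fell by 2.21 ± 0.18 in WT, in WT to 40.3, 32.4, 23.8 and 25.2 CPM at 24 h, against 133, 166, 145 and 127 CPM unstimulated. Ccnb2, cyclin B2, fell by 0.69 ± 0.14 in CIS KO and fell by 1.76 ± 0.15 in WT. Cdc25c, a phosphatase that activates Cdk1, had low counts (0 to 27 per library) and had a log2 fold change of -1.16 ± 0.41, adjusted p = 0.0391 in CIS KO and of -2.53 ± 0.40, adjusted p = 8.26e-06 in WT. Cdc25b, a related phosphatase, changed by nearly as much in CIS KO (-0.73 ± 0.13) as in WT (-0.95 ± 0.13), and a difference of the responses was not detectable (0.23 ± 0.19, adjusted p = 0.574).

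Mitotic kinases fell in WT at 24 h, 5 of 5, with a median of -2.04. Plk1, polo-like kinase 1, acts at centrosomes, kinetochores and the cleavage site. It stood at 165, 160 and 162 CPM unstimulated, 123, 144 and 119 CPM at 4 h and 179, 207 and 173 CPM at 24 h in TGFBRII KO. It stood at 185, 180, 145 and 171 CPM unstimulated, 99.3, 109, 103 and 84 CPM at 4 h and 113, 93, 104 and 118 CPM at 24 h in CIS KO and 179, 176, 132 and 178 CPM unstimulated, 180 and 129 CPM at 4 h and 83.3, 61.5, 56.6 and 63.8 CPM at 24 h in WT. The unstimulated WT libraries of Plk1 lie within 176 to 179 CPM but for replicate 3 at 132 CPM. Plk1 fell by 0.69 ± 0.13 in CIS KO and fell by 1.31 ± 0.13 in WT at 24 h.

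Aurka, Aurora kinase A, is needed for spindle poles. Aurka stood at 144, 106 and 152 CPM unstimulated, 96.3, 92.2 and 99.5 CPM at 4 h and 140, 178 and 142 CPM at 24 h in the TGFBRII KO libraries. Aurka in CIS KO stood at 135, 148, 108 and 157 CPM unstimulated, 86.6, 54.7, 76.2 and 61.8 CPM at 4 h and 69.3, 86.3, 71.7 and 83.6 CPM at 24 h, and the WT libraries 154, 155, 134 and 138 CPM unstimulated, 86.4 and 87.7 CPM at 4 h and 44.3, 45.3, 35.8 and 38.6 CPM at 24 h. The CIS KO and WT libraries at 24 h did not overlap, and both lay below all unstimulated libraries of their genotype. Its log2 fold change was -0.81 ± 0.14 in CIS KO and -1.80 ± 0.14 in WT.

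Pbk (Entrez 52033; chromosome 14, 65805911 to 65817822), a mitotic kinase, was among the genes that fell most in WT, with 9.4, 15.1, 11.9 and 2.97 CPM at 24 h, against 82.6, 91.1, 86.3 and 71.8 CPM unstimulated. In CIS KO it held 52.4, 51.9, 35.9 and 43.5 CPM at 24 h, against 47, 61.2, 72.7 and 76.3 CPM unstimulated. The CIS KO groups overlap and the WT groups lie far apart. The log2 fold change of Pbk was -0.49 ± 0.19, adjusted p = 0.0616 in CIS KO and -3.00 ± 0.24, adjusted p = 3.95e-12 in WT, and the difference of the 2 responses, 2.51 ± 0.32, adjusted p = 1.65e-05, was the largest of the genes called in that comparison. Nek2, a kinase that separates centrosomes, had a log2 fold change of -0.99 ± 0.40, adjusted p = 0.0662 in CIS KO and of -2.04 ± 0.39, adjusted p = 1.33e-04 in WT. Melk, a kinase with high levels in dividing cells, fell by 0.77 ± 0.25 in CIS KO and fell by 2.69 ± 0.29 in WT.

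**Figure D3:**
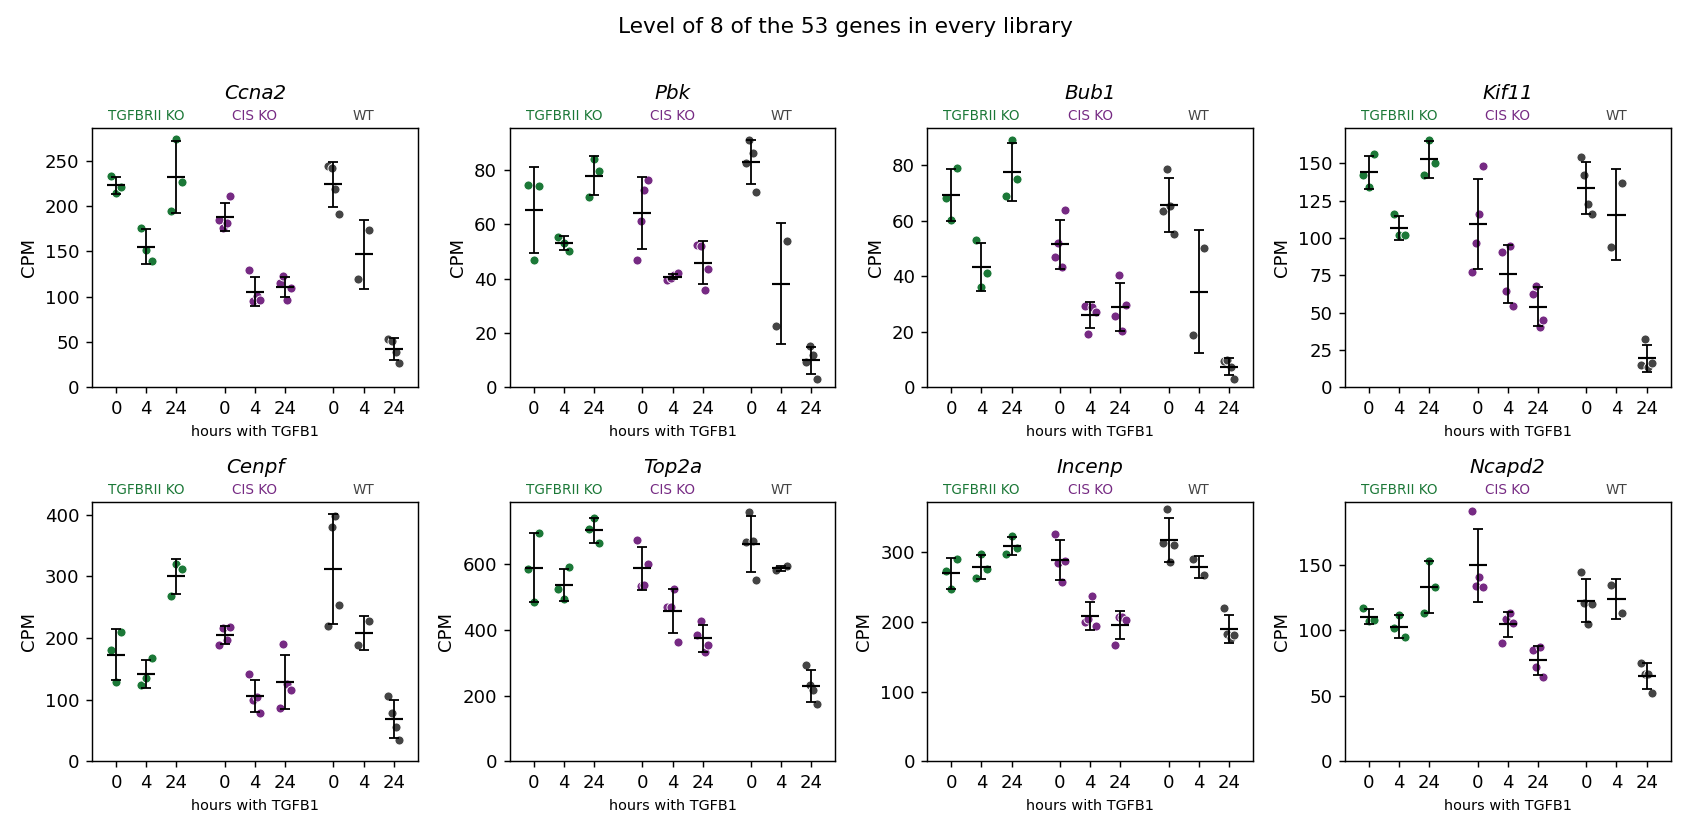
CPM of 8 of the 53 genes in every library, by genotype and hours with TGFB1 (0 is unstimulated). Points are libraries, bars means and whiskers 1 SD. For Ccna2, Pbk, Bub1 and Kif11 the CIS KO libraries at 24 h lie above all WT libraries at 24 h, whereas for Cenpf, Incenp and Ncapd2 the 2 genotypes overlap.

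Spindle checkpoint genes fell in CIS KO at 24 h, 4 of 4, with a median of -0.80, and 4 of 4 fell in WT with a median of -2.27. Bub1 (Entrez 12235; chromosome 2, 127800197 to 127831859), a checkpoint kinase at kinetochores, had the largest fall of the 53. It held 68.4, 60.3 and 79 CPM unstimulated, 53, 36 and 41.2 CPM at 4 h and 68.8, 89.2 and 75 CPM at 24 h in TGFBRII KO. It held 47, 51.9, 43.2 and 63.8 CPM unstimulated, 29.3, 19, 28.8 and 27.2 CPM at 4 h and 25.5, 40.5, 20.3 and 29.6 CPM at 24 h in CIS KO and 63.5, 78.7, 65.4 and 55.2 CPM unstimulated, 18.8 and 50.1 CPM at 4 h and 9.4, 9.71, 7.45 and 2.97 CPM at 24 h in WT. The WT libraries at 24 h were all under 10 CPM, resting on as few as 2 counts, and the CIS KO libraries at 24 h lay between 20.3 and 40.5 CPM. Bub1 had a log2 fold change of -0.77 ± 0.22, adjusted p = 0.0112 in CIS KO and of -3.09 ± 0.27, adjusted p = 4.20e-11 in WT.

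Bub1b, which encodes BubR1, a checkpoint protein that binds Cdc20, fell less. Bub1b stood at 130, 129 and 132 CPM unstimulated, 104, 102 and 98.3 CPM at 4 h and 134, 152 and 152 CPM at 24 h in the TGFBRII KO libraries. Bub1b in CIS KO stood at 124, 141, 120 and 148 CPM unstimulated, 93, 99.8, 111 and 93.9 CPM at 4 h and 94.8, 84.3, 67 and 87 CPM at 24 h, and the WT libraries 156, 145, 115 and 124 CPM unstimulated, 128 and 157 CPM at 4 h and 51, 57.2, 59.6 and 54.9 CPM at 24 h. The 3 genotypes did not overlap at 24 h. Bub1b fell by 0.69 ± 0.11 in CIS KO and fell by 1.26 ± 0.12 in WT, and the difference of the responses was 0.57 ± 0.16, adjusted p = 0.0803.

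Mad2l1 encodes Mad2, which carries the checkpoint signal from unattached kinetochores. Mad2l1 stood at 81.1, 82 and 87.5 CPM unstimulated, 91.5, 67.7 and 73.2 CPM at 4 h and 93.8, 102 and 98.8 CPM at 24 h in the TGFBRII KO libraries. Mad2l1 in CIS KO stood at 105, 115, 76.6 and 107 CPM unstimulated, 54.8, 40.4, 47.3 and 29.7 CPM at 4 h and 45.3, 56.6, 42.1 and 47 CPM at 24 h, and the WT libraries 102, 117, 101 and 98.1 CPM unstimulated, 56.4 and 87.7 CPM at 4 h and 20.1, 31.3, 29.8 and 10.4 CPM at 24 h. Mad2l1 was already low in CIS KO at 4 h, where its change was -1.17 ± 0.19, adjusted p = 2.78e-05, and its 24 h change was -1.04 ± 0.17 in CIS KO and -2.14 ± 0.19 in WT. Ttk, the kinase Mps1 that starts checkpoint signalling, fell by 0.84 ± 0.22 in CIS KO and fell by 2.40 ± 0.23 in WT.

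APC/C partners and separase fell in both genotypes at 24 h, 3 of 3 in each. Cdc20 is the activator of the APC/C that the checkpoint blocks. It held 108, 107 and 107 CPM unstimulated, 85.5, 93.6 and 88 CPM at 4 h and 121, 122 and 127 CPM at 24 h in TGFBRII KO. It held 113, 87.2, 94.3 and 114 CPM unstimulated, 62.4, 49.9, 45.3 and 47 CPM at 4 h and 63.7, 52.6, 68.6 and 80.1 CPM at 24 h in CIS KO and 107, 130, 99.8 and 130 CPM unstimulated, 67.6 and 91.4 CPM at 4 h and 56.4, 34.5, 40.2 and 26.7 CPM at 24 h in WT. One WT library at 24 h, replicate 1, overlaps the CIS KO range. Cdc20 fell by 0.68 ± 0.15 in CIS KO and fell by 1.54 ± 0.15 in WT.

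Ube2c is the ubiquitin-conjugating enzyme that works with the APC/C. Ube2c stood at 118, 95.2 and 99.6 CPM unstimulated, 84.3, 70.6 and 67.4 CPM at 4 h and 107, 109 and 97.6 CPM at 24 h in the TGFBRII KO libraries. Ube2c in CIS KO stood at 124, 94.6, 112 and 112 CPM unstimulated, 71.3, 57.1, 61.8 and 56.8 CPM at 4 h and 63.7, 51.2, 57.7 and 43.5 CPM at 24 h, and the WT libraries 114, 88.6, 75.4 and 91.2 CPM unstimulated, 105 and 80.2 CPM at 4 h and 33.6, 32.4, 35.8 and 46 CPM at 24 h. The CIS KO and WT libraries overlapped at 24 h, and the difference between their responses was 0.29 ± 0.21, adjusted p = 0.534. Espl1, separase, which cuts the cohesin that holds sister chromatids, fell by 0.67 ± 0.24 in CIS KO and fell by 2.59 ± 0.27 in WT.

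The chromosomal passenger complex, made of Aurkb, Incenp, Birc5 and Cdca8, had the smallest median of the role groups in WT at 24 h (-1.22), with 4 of 4 lower. Incenp (Entrez 16319; chromosome 19, 9872295 to 9899489), its scaffold, had the smallest fall of the 53. Incenp stood at 272, 246 and 290 CPM unstimulated, 263, 297 and 275 CPM at 4 h and 297, 323 and 305 CPM at 24 h in the TGFBRII KO libraries. Incenp in CIS KO stood at 326, 284, 257 and 286 CPM unstimulated, 199, 204, 237 and 193 CPM at 4 h and 166, 206, 207 and 202 CPM at 24 h, and the WT libraries 313, 361, 285 and 309 CPM unstimulated, 289 and 267 CPM at 4 h and 220, 182, 176 and 181 CPM at 24 h. The CIS KO and WT ranges overlap at 24 h, and both are below their unstimulated libraries. Incenp had a log2 fold change of -0.55 ± 0.10, adjusted p = 1.50e-04 in CIS KO and of -0.74 ± 0.10, adjusted p = 4.83e-07 in WT, with a difference of 0.18 ± 0.14, adjusted p = 0.555.

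Birc5 encodes survivin, the subunit that brings the complex to centromeres. Birc5 stood at 218, 199 and 215 CPM unstimulated, 206, 210 and 207 CPM at 4 h and 209, 222 and 207 CPM at 24 h in the TGFBRII KO libraries. Birc5 in CIS KO stood at 359, 271, 275 and 223 CPM unstimulated, 166, 219, 218 and 208 CPM at 4 h and 168, 105, 164 and 197 CPM at 24 h, and the WT libraries 245, 232, 174 and 213 CPM unstimulated, 323 and 192 CPM at 4 h and 113, 90.6, 95.4 and 75.7 CPM at 24 h. A single CIS KO library at 24 h, replicate 2 at 105 CPM, lies within the WT range. Birc5 fell by 0.86 ± 0.16 in CIS KO and fell by 1.19 ± 0.17 in WT. Aurkb, the kinase of the complex, fell by 0.82 ± 0.23 in CIS KO and fell by 2.51 ± 0.26 in WT, and Cdca8, borealin, fell by 0.55 ± 0.12 in CIS KO and fell by 1.24 ± 0.12 in WT.

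Of the centromere and kinetochore genes, 6 of 7 fell in CIS KO at 24 h, and 7 of 7 fell in WT with a median of -2.26. The 4 subunits of the Ndc80 complex, which grips microtubules, all fell. In CIS KO, Nuf2 fell by 1.06 ± 0.21, Ndc80 fell by 0.90 ± 0.26, Spc24 fell by 1.15 ± 0.13 and Spc25 fell by 0.89 ± 0.13. In WT, Nuf2 fell by 2.94 ± 0.24, Ndc80 fell by 2.55 ± 0.27, Spc24 fell by 2.44 ± 0.14 and Spc25 fell by 2.26 ± 0.15. Nuf2 held 21.2, 23.6, 17.2 and 22.6 CPM in CIS KO and 9.4, 7.55, 5.96 and 2.97 CPM in WT at 24 h, without overlap.

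Cenpa (Entrez 12615; chromosome 5, 30666877 to 30674837), the histone H3 variant that marks centromeres, was one of the least changed. Cenpa stood at 320, 313 and 304 CPM unstimulated, 308, 285 and 208 CPM at 4 h and 297, 275 and 270 CPM at 24 h in the TGFBRII KO libraries. Cenpa in CIS KO stood at 329, 308, 300 and 266 CPM unstimulated, 208, 169, 237 and 215 CPM at 4 h and 195, 129, 195 and 218 CPM at 24 h, and the WT libraries 314, 260, 179 and 244 CPM unstimulated, 312 and 244 CPM at 4 h and 113, 152, 156 and 148 CPM at 24 h. One CIS KO library at 24 h, replicate 2 at 129 CPM, lies inside the WT range of 113 to 156 CPM. Cenpa had a log2 fold change of -0.74 ± 0.15, adjusted p = 6.12e-04 in CIS KO and of -0.79 ± 0.15, adjusted p = 1.77e-04 in WT.

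Cenpf, a large outer kinetochore protein made in G2, spread widely among unstimulated libraries. Cenpf stood at 181, 128 and 209 CPM unstimulated, 124, 135 and 167 CPM at 4 h and 268, 320 and 312 CPM at 24 h in the TGFBRII KO libraries. Cenpf in CIS KO stood at 188, 217, 196 and 218 CPM unstimulated, 141, 99.8, 105 and 79.1 CPM at 4 h and 86.3, 190, 126 and 115 CPM at 24 h, and the WT libraries 219, 380, 397 and 253 CPM unstimulated, 188 and 227 CPM at 4 h and 106, 77.7, 55.1 and 34.1 CPM at 24 h. All 3 unstimulated TGFBRII KO libraries lie below the 4 unstimulated WT libraries. The difference of unstimulated TGFBRII KO from WT was -0.87 ± 0.22, adjusted p = 0.0902, and that of CIS KO from WT was -0.61 ± 0.20, adjusted p = 0.06. Cenpe, a kinetochore motor, had a log2 fold change of -0.39 ± 0.24, adjusted p = 0.231 in CIS KO and fell by 1.91 ± 0.24 in WT.

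Of the spindle and motor genes, 6 of 8 fell in CIS KO at 24 h (median -0.78), and in WT 8 of 8 fell, with the lowest median of the role groups of 3 or more genes (-2.51). Tpx2 (Entrez 72119; chromosome 2, 152847964 to 152895321), which loads Aurora A on the spindle, held 179, 160 and 231 CPM unstimulated, 148, 127 and 166 CPM at 4 h and 248, 242 and 218 CPM at 24 h in TGFBRII KO. Tpx2 held 130, 145, 173 and 187 CPM unstimulated, 82.8, 59.4, 98.8 and 98.9 CPM at 4 h and 103, 139, 95.1 and 104 CPM at 24 h in CIS KO and 220, 255, 249 and 200 CPM unstimulated, 78.9 and 152 CPM at 4 h and 57.7, 36.7, 41.7 and 43 CPM at 24 h in WT. Unstimulated CIS KO libraries of Tpx2 were all below the unstimulated WT libraries (-0.52 ± 0.14, adjusted p = 0.0318). Tpx2 had a log2 fold change of -0.50 ± 0.16, adjusted p = 0.0198 in CIS KO and of -2.38 ± 0.17, adjusted p = 4.38e-13 in WT.

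Nusap1, which bundles spindle microtubules, behaved in a like way. Nusap1 stood at 213, 182 and 232 CPM unstimulated, 146, 137 and 166 CPM at 4 h and 255, 293 and 292 CPM at 24 h in the TGFBRII KO libraries. Nusap1 in CIS KO stood at 182, 200, 202 and 214 CPM unstimulated, 139, 109, 126 and 86.5 CPM at 4 h and 113, 131, 106 and 122 CPM at 24 h, and the WT libraries 244, 278, 272 and 211 CPM unstimulated, 143 and 215 CPM at 4 h and 83.3, 64.7, 44.7 and 40.1 CPM at 24 h. At 24 h the 3 genotypes did not overlap. Nusap1 fell by 0.75 ± 0.15 in CIS KO and fell by 2.09 ± 0.15 in WT.

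Kif11 (Entrez 16551; chromosome 19, 37376382 to 37421863), the motor Eg5 that pushes spindle poles apart, held 142, 166 and 150 CPM in TGFBRII KO, 62.3, 68.1, 40.5 and 45.3 CPM in CIS KO and 14.8, 32.4, 13.4 and 16.3 CPM in WT at 24 h. The fitted level at 24 h was 0.5 times the unstimulated one in CIS KO (adjusted p = 1.84e-04) and 0.152 times in WT (adjusted p = 5.22e-12). Kif2c, a motor that takes microtubules apart, fell by 0.75 ± 0.21 in CIS KO and fell by 2.56 ± 0.23 in WT. Kif15, a second motor of the bipolar spindle, fell by 0.80 ± 0.16 in CIS KO and fell by 2.04 ± 0.17 in WT. Hmmr, a spindle-binding protein, fell by 0.93 ± 0.21 in CIS KO and fell by 2.67 ± 0.23 in WT. Dlgap5, which stabilises kinetochore fibres, had a value of -0.68 ± 0.28, adjusted p = 0.0713 in CIS KO and fell by 2.45 ± 0.30 in WT. Kif18b, a motor at microtubule ends, had few counts (1 to 31 per library). It is the member that fell at 4 h in TGFBRII KO by the most (-1.30 ± 0.40, adjusted p = 0.0386) and that had the lowest value there at 24 h (-1.19 ± 0.39, adjusted p = 0.482).

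Of the cytokinesis genes, 4 of 7 fell in CIS KO at 24 h, and 7 of 7 fell in WT with a median of -1.82. Racgap1 forms, with Kif23, the centralspindlin complex that sets the cleavage plane. Racgap1 stood at 192, 174 and 198 CPM unstimulated, 147, 137 and 145 CPM at 4 h and 163, 240 and 235 CPM at 24 h in the TGFBRII KO libraries. Racgap1 in CIS KO stood at 152, 167, 171 and 186 CPM unstimulated, 101, 80.8, 88.5 and 96.4 CPM at 4 h and 90.6, 121, 87.3 and 122 CPM at 24 h, and the WT libraries 196, 208, 214 and 193 CPM unstimulated, 109 and 172 CPM at 4 h and 85.9, 62.6, 56.6 and 62.3 CPM at 24 h. At 24 h the lowest CIS KO library, 87.3 CPM, was just above the highest WT library, 85.9 CPM. Racgap1 fell by 0.67 ± 0.14 in CIS KO and fell by 1.60 ± 0.14 in WT.

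Prc1 bundles the microtubules of the central spindle. Prc1 stood at 153, 136 and 163 CPM unstimulated, 105, 107 and 131 CPM at 4 h and 180, 193 and 164 CPM at 24 h in the TGFBRII KO libraries. Prc1 in CIS KO stood at 108, 119, 118 and 153 CPM unstimulated, 87.9, 61.8, 82.3 and 89 CPM at 4 h and 77.8, 99.1, 71.7 and 74.9 CPM at 24 h, and the WT libraries 170, 197, 181 and 155 CPM unstimulated, 116 and 143 CPM at 4 h and 65.8, 39.9, 29.8 and 31.2 CPM at 24 h. Unstimulated CIS KO libraries were all below the unstimulated WT libraries (-0.47 ± 0.14, adjusted p = 0.0382). Prc1 fell by 0.60 ± 0.16 in CIS KO and fell by 2.06 ± 0.16 in WT. Ect2, which activates RhoA at the cleavage site, fell by 0.58 ± 0.18 in CIS KO and fell by 1.82 ± 0.19 in WT. Anln, an actin-binding protein of the contractile ring, fell by 0.94 ± 0.35 in CIS KO and fell by 2.08 ± 0.39 in WT. In CIS KO the values of Kif23 and of Kif20b, a central spindle motor, were -0.38 ± 0.16, adjusted p = 0.081 and -0.38 ± 0.29, adjusted p = 0.359. In WT, Kif23 fell by 1.46 ± 0.16, Kif20b fell by 1.57 ± 0.28 and Kif20a, another such motor with 0 to 21 counts per library, fell by 2.15 ± 0.64. Kif20a is the one member with a value above 0 in CIS KO at 24 h (0.06 ± 0.67, adjusted p = 0.964).

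Among genes of chromosome structure, 4 of 7 fell in CIS KO at 24 h, and 7 of 7 fell in WT with a median of -1.58. Top2a (Entrez 21973; chromosome 11, 98992947 to 99024199), the topoisomerase that untangles sister chromatids, held 584, 486 and 696 CPM unstimulated, 524, 495 and 591 CPM at 4 h and 707, 740 and 664 CPM at 24 h in TGFBRII KO. It held 674, 534, 538 and 601 CPM unstimulated, 469, 471, 525 and 363 CPM at 4 h and 386, 427, 332 and 355 CPM at 24 h in CIS KO and 667, 759, 669 and 552 CPM unstimulated, 582 and 593 CPM at 4 h and 293, 232, 218 and 174 CPM at 24 h in WT. No library of 1 genotype overlaps another at 24 h. Top2a fell by 0.63 ± 0.13 in CIS KO and fell by 1.53 ± 0.13 in WT.

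Smc4, a core subunit of condensin, spread more among libraries. Smc4 stood at 372, 299 and 512 CPM unstimulated, 448, 475 and 511 CPM at 4 h and 500, 456 and 469 CPM at 24 h in the TGFBRII KO libraries. Smc4 in CIS KO stood at 365, 443, 503 and 426 CPM unstimulated, 368, 414, 504 and 373 CPM at 4 h and 239, 448, 309 and 258 CPM at 24 h, and the WT libraries 466, 568, 524 and 436 CPM unstimulated, 428 and 471 CPM at 4 h and 312, 332, 198 and 166 CPM at 24 h. The CIS KO and WT ranges overlap at 24 h. Smc4 had a log2 fold change of -0.45 ± 0.18, adjusted p = 0.069 in CIS KO and of -0.97 ± 0.18, adjusted p = 8.18e-05 in WT.

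The 5 condensin subunits on the list differed in size of change. In CIS KO, Ncapd2 fell by 0.93 ± 0.13 and Smc2 fell by 0.61 ± 0.15, while the values of Ncaph and Ncapg were -0.43 ± 0.22, adjusted p = 0.158 and -0.15 ± 0.29, adjusted p = 0.753. In WT, Ncaph fell by 2.62 ± 0.25, Ncapg fell by 1.99 ± 0.29, Smc2 fell by 1.58 ± 0.16, Smc4 fell by 0.97 ± 0.18 and Ncapd2 fell by 0.89 ± 0.13. Ncaph held 38.2, 45.2, 53 and 57.4 CPM in CIS KO and 17.5, 23.7, 4.47 and 7.42 CPM in WT at 24 h. Ncapd2 held 84.9, 72.1, 87.3 and 64.4 CPM in CIS KO and 75.2, 66.9, 67.1 and 51.9 CPM in WT at 24 h. The Ncaph ranges are apart and the Ncapd2 ranges overlap. Mki67, the Ki-67 protein that coats mitotic chromosomes, fell by 0.62 ± 0.23 in CIS KO and fell by 1.67 ± 0.22 in WT.

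Both transcription factors on the list drive G2 and mitosis genes, and at 24 h neither was called in CIS KO and both fell in WT. Foxm1 held 77.3, 69.9 and 96 CPM unstimulated, 59, 50.4 and 52.6 CPM at 4 h and 64.1, 95.5 and 77.4 CPM at 24 h in TGFBRII KO. It held 60.8, 59.4, 43.2 and 69.4 CPM unstimulated, 35.7, 26.1, 37.1 and 24.7 CPM at 4 h and 36.8, 51.9, 49.9 and 31.3 CPM at 24 h in CIS KO and 86.4, 78.7, 86.3 and 73.2 CPM unstimulated, 56.4 and 55.1 CPM at 4 h and 18.8, 31.3, 17.9 and 19.3 CPM at 24 h in WT. The CIS KO unstimulated and 24 h libraries of Foxm1 overlap. Foxm1 had a log2 fold change of -0.41 ± 0.19, adjusted p = 0.104 in CIS KO and of -1.85 ± 0.19, adjusted p = 1.36e-09 in WT.

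Mybl2, B-Myb, rests on 0 to 18 counts per library. Mybl2 stood at 12.7, 9.64 and 9.72 CPM unstimulated, 14.5, 10.1 and 11.4 CPM at 4 h and 19, 17.6 and 16.7 CPM at 24 h in the TGFBRII KO libraries. Mybl2 in CIS KO stood at 22.1, 11.1, 3.93 and 11.1 CPM unstimulated, 6.37, 9.51, 0 and 4.94 CPM at 4 h and 5.66, 6.74, 9.36 and 5.22 CPM at 24 h, and the WT libraries 12.7, 22.5, 15.1 and 9.67 CPM unstimulated, 3.76 and 3.76 CPM at 4 h and 1.34, 3.24, 1.49 and 0 CPM at 24 h. The WT libraries at 24 h were all under 4 CPM and below every CIS KO library at 24 h. Mybl2 had a log2 fold change of -0.74 ± 0.45, adjusted p = 0.231 in CIS KO and of -3.07 ± 0.52, adjusted p = 2.68e-05 in WT.

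Set against WT at 24 h, all 53 genes were higher in TGFBRII KO and 0 lower, where 11.5% of all genes tested were higher. The median log2 difference was 2.09 (range 0.70 to 3.32), against -0.03 for all genes tested. Bub1 differed most (3.32 ± 0.27, adjusted p = 1.27e-11), then Mybl2 (3.30 ± 0.54, adjusted p = 1.12e-05), and Kif11 differed by 2.91 ± 0.22, adjusted p = 2.05e-12. In CIS KO, 38 of 53 were higher than in WT at 24 h and 0 lower, where 2.22% of all genes were higher. The median was 0.99 (range 0.04 to 2.18), against 0.01 for all genes tested. All CIS KO libraries lay above all WT libraries for 33 of 53 genes, as they did for 3.63% of all genes tested. Pbk (2.18 ± 0.26), Bub1 (2.00 ± 0.31) and Ncaph (1.74 ± 0.28) differed most among those called. With only the 8 libraries compared in the fit, 16 of 53 were called higher. Both comparisons use the same 4 WT libraries. At 24 h the summed NK markers were 4004 to 4253 CPM in TGFBRII KO and 3305 to 3976 CPM in WT. The summed T cell markers were 578 to 655 CPM in TGFBRII KO and 454 to 532 CPM in WT. The summed ILC2 and ILC3 markers were 126 to 169 CPM in TGFBRII KO and 173 to 295 CPM in WT. The summed myeloid markers were 67.9 to 114 CPM in CIS KO and 127 to 194 CPM in WT, and the summed stromal markers were 336 to 370 CPM in CIS KO and 311 to 334 CPM in WT.

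Between the unstimulated groups few of the 53 genes were called, and few of all genes tested. Unstimulated TGFBRII KO against WT gave 0 of 53 called by edgeR's quasi-likelihood test and by DESeq2, where 0.146% of all genes were called. The median was -0.14, against -0.01 for all genes tested. Values were negative for 41 of 53 and for 5437 of all 10275 genes tested. The unadjusted edgeR p was under 0.05 for 7 of 53 and for 929 of the 10275. Without unstimulated WT replicate 1, 3 were called. Unstimulated CIS KO against WT gave 2 lower, Tpx2 and Prc1, and 0 higher, where 2.96% of all genes were lower. The median there was -0.27, against -0.04 for all genes tested. Most of the set leaned lower in CIS KO, with negative values for 45 of 53, against 5625 of all 10275 genes tested. The unadjusted edgeR p was under 0.05 for 21 of 53 and for 2766 of the 10275. The count of genes called was 0 with library size as a covariate and 0 without CIS KO replicate 1, 2 or 3 or WT replicate 2 or 3. It was 5 without CIS KO replicate 4 and 6 without WT replicate 1. Unstimulated T cell marker sums were 643 to 661 CPM in TGFBRII KO, 469 to 542 CPM in CIS KO and 544 to 572 CPM in WT. Myeloid sums were 176 to 198 CPM in TGFBRII KO and 116 to 164 CPM in WT, and stromal sums were 341 to 377 CPM in CIS KO and 262 to 305 CPM in WT.

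The test of the difference between responses takes the unstimulated levels into account. For TGFBRII KO minus WT at 24 h, 49 of 53 differences were higher and 0 lower, where 6.89% of all genes were higher, with a median of 2.31 against -0.02 for all genes tested. Mybl2 (3.79 ± 0.67), Cdc25c (3.41 ± 0.52) and Pbk (3.26 ± 0.31) had the largest. The 4 genes not called were Nek2 (1.48 ± 0.53, adjusted p = 0.07), Kif18b (1.38 ± 0.67, adjusted p = 0.219), Kif20a (2.43 ± 0.88, adjusted p = 0.0745) and Cenpa (0.64 ± 0.22, adjusted p = 0.0635).

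For CIS KO minus WT at 24 h, 36 of 53 differences were higher and 0 lower, where 1.21% of all genes were higher, with a median of 1.34 against 0.04 for all genes tested. The value was larger in CIS KO than in WT for 52 of 53 genes, with Ncapd2 as the exception. By role, 7 of 8 spindle and motor genes were called, 6 of 7 centromere and kinetochore genes and 3 of 4 checkpoint genes. Of the passenger complex 2 of 4 were called, of the mitotic kinases 3 of 5, and of the cyclin, Cdk1 and Cdc25 group, the cytokinesis genes and the chromosome structure genes 4 each. Behind Pbk, the largest differences among the genes called were in Bub1 (2.32 ± 0.37, adjusted p = 2.36e-04) and Ncaph (2.19 ± 0.34, adjusted p = 2.36e-04). Among the 17 genes not called, Ncapd2 (-0.04 ± 0.19), Cenpa (0.06 ± 0.22), Incenp (0.18 ± 0.14), Cdc25b (0.23 ± 0.19) and Ube2c (0.29 ± 0.21) had values near 0, whereas Kif20a (2.22 ± 0.94) and Mybl2 (2.33 ± 0.72) had large values with large errors. With library size as a covariate 20 of 53 were called, and the libraries held 590009 to 1403005 counts in CIS KO at 24 h and 392266 to 711659 unstimulated, against 673239 to 898365 in WT at 24 h and 712432 to 1135104 unstimulated.

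**Figure D4:**
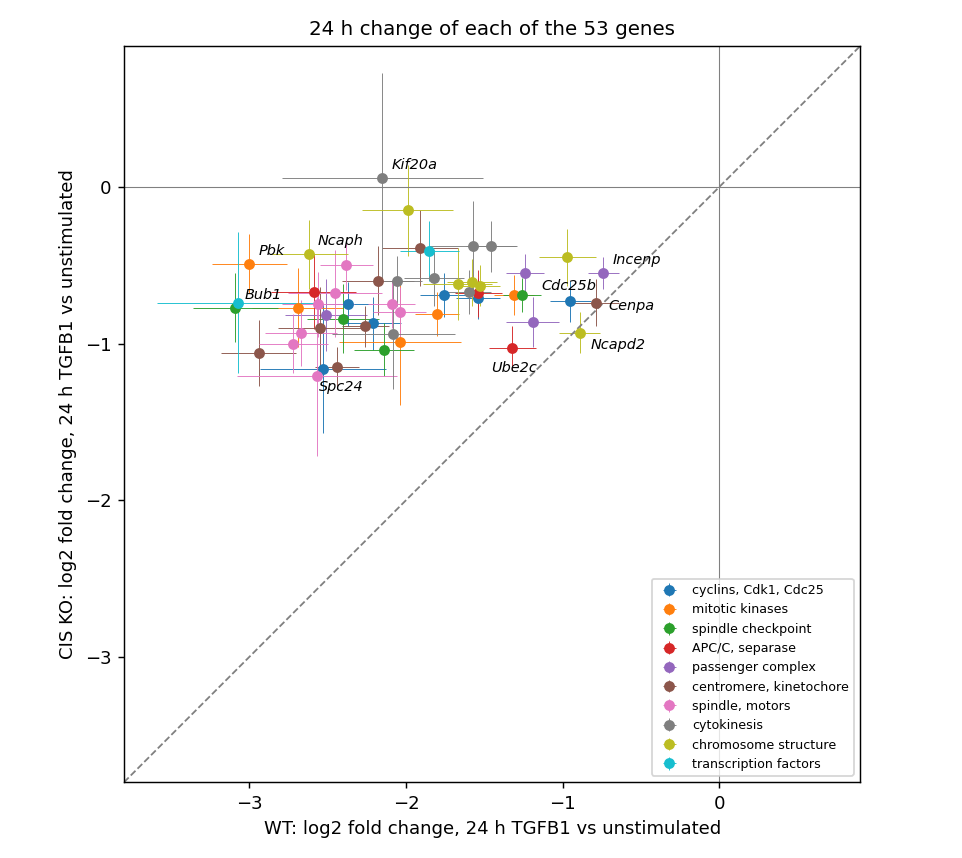
Log2 fold change at 24 h of TGFB1 against unstimulated cells for each of the 53 genes, in CIS KO (vertical axis) and WT (horizontal axis), coloured by role, with standard errors. The dashed line marks equal change. Of 53 genes, 52 lie above it, and Ncapd2, Cenpa, Incenp and Cdc25b lie on or close to it.

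**Figure D5:**
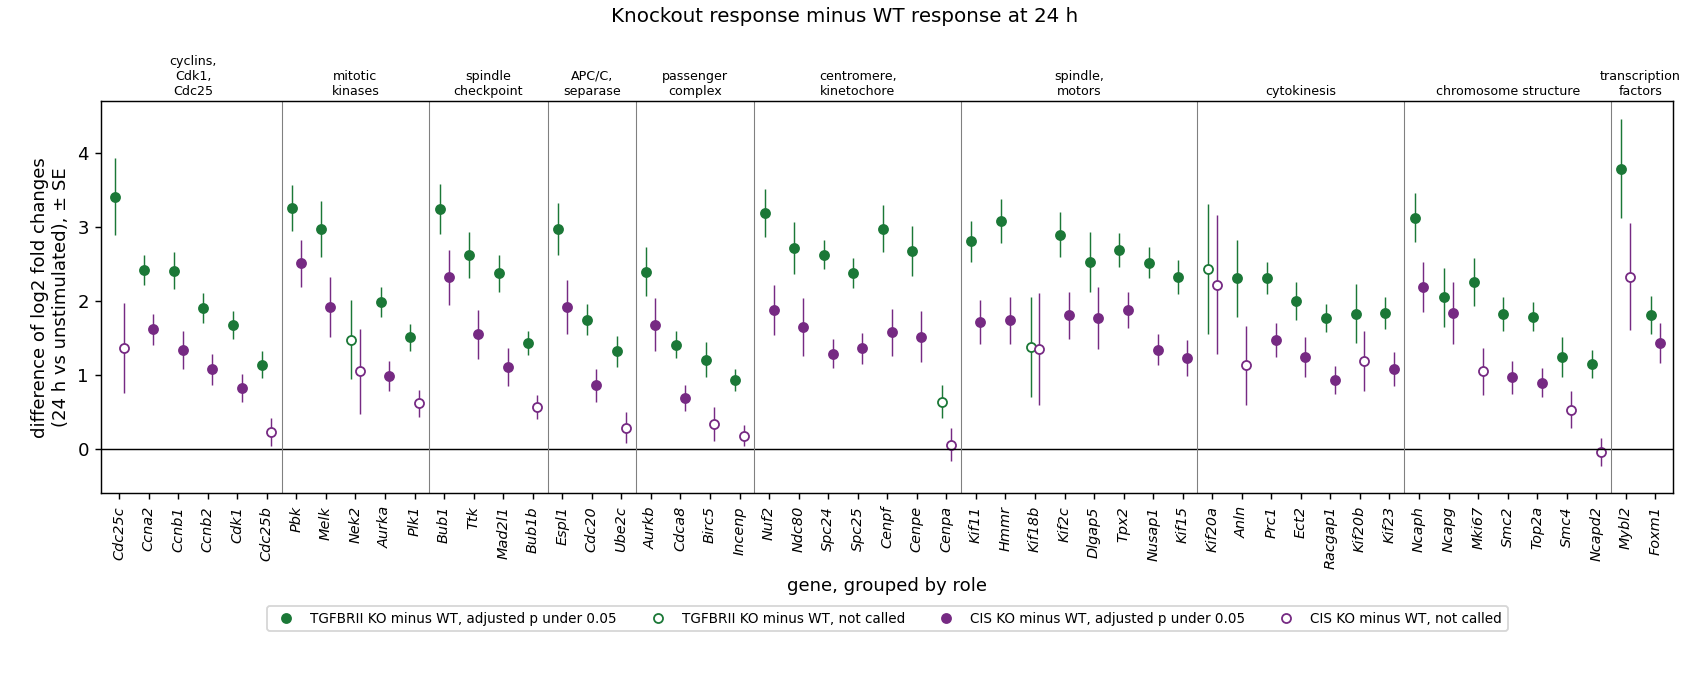
Difference between the 24 h response (log2 fold change against unstimulated cells) of TGFBRII KO (green) or CIS KO (purple) and that of WT, for each of the 53 genes, with standard errors. Filled points have an adjusted p under 0.05, 49 for TGFBRII KO and 36 for CIS KO. Both series use the same WT libraries.

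Of the genotypes, CIS KO had the most genes called at 4 h, with 4 libraries at that time against 3 in TGFBRII KO and 2 in WT. In TGFBRII KO at 4 h, 11 of 53 fell and 0 rose, where 3.45% of all genes fell, with a median of -0.34 against -0.01 for all genes tested. The 11 were Aurkb, Kif18b, Dlgap5, Nusap1, Cdc25b, Ube2c, Aurka, Ect2, Ccna2, Foxm1 and Ccnb2, with Kif18b, Dlgap5 (-1.05 ± 0.28, adjusted p = 0.0158) and Aurkb (-0.85 ± 0.22, adjusted p = 0.0114) falling most. That count was 2, 7 and 3 without unstimulated TGFBRII KO replicates 1, 2 and 3, 5 and 4 without replicates 2 and 3 at 4 h and 4 by DESeq2, and it was 20 with the 6 TGFBRII KO libraries fitted alone or with library size as a covariate. The summed T cell markers were 477 to 560 CPM at 4 h and 643 to 661 CPM unstimulated in TGFBRII KO, and the summed myeloid markers 107 to 150 CPM at 4 h and 176 to 198 CPM unstimulated. In CIS KO, 36 of 53 genes fell and 0 rose, where 6.3% of all genes fell, with a median of -0.75 against -0.00 for all genes tested. Nuf2 (-1.32 ± 0.24, adjusted p = 1.11e-04), Hmmr (-1.17 ± 0.24, adjusted p = 5.16e-04) and Mad2l1 fell most. The summed ILC2 and ILC3 markers were 214 to 269 CPM at 4 h and 151 to 199 CPM unstimulated in CIS KO, and the summed stromal markers 378 to 487 CPM at 4 h and 341 to 377 CPM unstimulated.

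In WT at 4 h, 6 of 53 fell and 0 rose, where 5.03% of all genes fell. With 2 libraries at 4 h, 24 of 53 had an unadjusted p under 0.05 in edgeR's quasi-likelihood test, against 2781 of all 10275 genes tested. Negative values were found for 50 of 53 and for 5283 of the 10275. The median was -0.42, against -0.02 for all genes tested. The 6 were Ccnb1 (-0.97 ± 0.22, adjusted p = 0.00229), Pbk (-0.89 ± 0.24, adjusted p = 0.0136), Tpx2, Mybl2 (-1.96 ± 0.65, adjusted p = 0.043), Aurka and Ccna2. The 2 WT libraries at 4 h stood apart for several of them, with 37.6 and 87.7 CPM of Ccnb1 and 22.5 and 53.9 CPM of Pbk, the lower value in the shallower replicate 1 each time. Without replicate 1 the count was 2, with library size alone as scaling 11 and with no filter on low counts 10. In WT the summed T cell markers were 433 to 481 CPM at 4 h and 544 to 572 CPM unstimulated, the ILC2 and ILC3 sums 278 to 301 CPM at 4 h and 148 to 224 CPM unstimulated, and the stromal sums 347 to 417 CPM at 4 h and 262 to 305 CPM unstimulated.

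The 4 h responses were not shown to differ between genotypes. The difference of CIS KO minus WT gave 0 of 53 called by edgeR's quasi-likelihood test and by DESeq2, where 0.0% of all genes were called. Its unadjusted edgeR p was under 0.05 for 11 of 53 and for 874 of all 10275 genes tested. For TGFBRII KO minus WT, 0 of 53 were called by both tools, where 7.57% of all genes were called in either direction. There the unadjusted edgeR p was under 0.05 for 3 of 53 and for 2223 of all 10275 genes tested. For that difference 2 were called without unstimulated WT replicate 1 and 1 without WT replicate 4 at 4 h. At 4 h, 1 of 53 was lower in TGFBRII KO than in WT, where 6.17% of all genes were lower. It was Bub1b, with 104, 102 and 98.3 CPM in TGFBRII KO and 128 and 157 CPM in WT (-0.54 ± 0.14, adjusted p = 0.00957), and without WT replicate 4 the single gene called was higher in TGFBRII KO. At 4 h, 1 of 53 was lower in CIS KO than in WT, where 0.136% of all genes were lower. It was Nuf2, with 24.2, 16.6, 14.4 and 12.4 CPM in CIS KO and 37.6 and 48.9 CPM in WT (-1.33 ± 0.28, adjusted p = 0.0196). An unadjusted edgeR p under 0.05 was found for 30 of 53 and for 895 of all 10275 genes tested. The count of genes called was 0 by DESeq2, 0 without CIS KO replicate 2, 3 or 4 or WT replicate 4, and 2 without CIS KO or WT replicate 1. At 4 h the summed myeloid markers were 107 to 150 CPM in TGFBRII KO, 109 to 144 CPM in CIS KO and 154 to 192 CPM in WT, and the ILC2 and ILC3 sums were 143 to 209 CPM in TGFBRII KO, 214 to 269 CPM in CIS KO and 278 to 301 CPM in WT.

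Between 4 h and 24 h the genotypes went apart. In TGFBRII KO 30 of 53 genes rose and 0 fell, where 4.3% of all genes rose, with a median of 0.55 against 0.01 for all genes tested. Cdc25c (1.30 ± 0.35, adjusted p = 0.0171), Dlgap5 (1.12 ± 0.28, adjusted p = 0.0082) and Cenpf (1.07 ± 0.24, adjusted p = 0.00317) rose most, and Ccnb1 held 134, 163 and 155 CPM at 24 h and 95.1, 97.9 and 104 CPM at 4 h. The 6 cyclin, Cdk1 and Cdc25 genes were all among the 30, and of 7 chromosome structure genes 1 was, Ncaph. The count was 10 without TGFBRII KO replicate 2 at 24 h, 17 without replicate 3 at 24 h, 17, 18 and 19 without replicates 2, 1 and 3 at 4 h, and 19 by DESeq2. The summed T cell markers were 578 to 655 CPM at 24 h and 477 to 560 CPM at 4 h.

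In CIS KO 1 of 53 genes were lower at 24 h than at 4 h and 0 higher, where 7.7% of all genes fell, with a median of 0.02 against 0.02 for all genes tested. The 1 gene was Ncapd2, with 84.9, 72.1, 87.3 and 64.4 CPM at 24 h and 90.4, 109, 113 and 106 CPM at 4 h (-0.43 ± 0.14, adjusted p = 0.0384), and DESeq2 called 0. The count was 0 without replicate 2, 3 or 4 at 4 h, and 2 without replicate 1 at 4 h or replicate 2 at 24 h. In WT 46 of 53 fell between 4 h and 24 h and 0 rose, where 4.57% of all genes fell, with a median of -1.56 against 0.01 for all genes tested. Nuf2 (-2.75 ± 0.31, adjusted p = 4.14e-07), Kif11 (-2.60 ± 0.28, adjusted p = 1.45e-07) and Kif2c (-2.43 ± 0.30, adjusted p = 1.02e-06) fell most. The 7 not called were Nek2 (adjusted p = 0.0544), Kif18b (adjusted p = 0.191), Kif20a (adjusted p = 0.23), Cdc25c (adjusted p = 0.0616), Kif20b (adjusted p = 0.0615), Mybl2 (adjusted p = 0.5) and Anln (adjusted p = 0.0795), and Mybl2 was among the 6 already called at 4 h. Without WT replicate 4 at 4 h, the count was 23. The summed stromal markers were 336 to 370 CPM at 24 h and 378 to 487 CPM at 4 h in CIS KO, and 311 to 334 CPM at 24 h and 347 to 417 CPM at 4 h in WT.

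Other cell cycle genes were described as 2 lists. One holds 91 other G2 and mitosis genes tested and the other 59 S-phase genes tested, which serve DNA replication. In TGFBRII KO at 24 h, 0 of each were called by edgeR's quasi-likelihood test. Its unadjusted p was under 0.05 for 10 of the 91, 4 of the 59 and 730 of all 10275 genes tested. In CIS KO at 24 h, 30 of the 91 fell and 1 rose (median -0.53), and 31 of the 59 fell and 1 rose (median -0.47). Of all 10275 genes tested, 1205 fell there and 1264 rose. In WT at 24 h, 72 of the 91 fell and 0 rose (median -1.65), and 52 of the 59 fell and 0 rose (median -1.19). Of all 10275 genes tested, 1177 fell there and 989 rose. The 53 mitosis genes had a median of -2.06 in the same WT comparison, and the lists were not tested against each other.

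The 4 other G2 and mitosis genes with the smallest p in WT at 24 h were Cdca3, a cell division gene, Cenph, a kinetochore subunit, Ska1, which couples kinetochores to microtubules, and Tacc3, a spindle protein. In CIS KO their log2 fold changes were -1.01 ± 0.12, -0.62 ± 0.16, -0.93 ± 0.15 and -0.78 ± 0.15 in that order, and in WT -2.05 ± 0.12, -2.05 ± 0.18, -1.90 ± 0.16 and -1.91 ± 0.16. The 4 S-phase genes were Asf1b, a histone chaperone, Clspn, a replication checkpoint protein, Mcm3, a subunit of the replicative helicase, and Rrm2, a subunit of the enzyme that makes deoxynucleotides. In CIS KO the values were -0.90 ± 0.13, -0.87 ± 0.16, -0.45 ± 0.11 and -1.06 ± 0.22 in that order, and in WT -1.91 ± 0.14, -2.01 ± 0.16, -1.51 ± 0.12 and -2.86 ± 0.25. The genes that went against their list in CIS KO were Arhgef39, higher at 24 h than in unstimulated cells by 0.95 ± 0.34 (edgeR adjusted p = 0.0394) and than at 4 h by 1.00 ± 0.34 (adjusted p = 0.0434), Rpa1, which binds single-stranded DNA, higher at 24 h by 0.74 ± 0.26 (adjusted p = 0.0379), and Stag2, a cohesin subunit, higher at 4 h by 0.34 ± 0.10 (adjusted p = 0.0206). Smc3, another cohesin subunit, and Lmnb1, a nuclear lamin, were lower at 24 h than at 4 h in CIS KO. Their log2 fold changes were -0.36 ± 0.11 and -0.40 ± 0.12. In that comparison 2 of the 91 were higher and 2 lower. Of all 10275 genes tested, 796 were higher and 791 lower. In unstimulated cells, E2f7, a repressor of cell cycle genes, was lower in CIS KO than in WT (log2 difference -0.82 ± 0.24, edgeR adjusted p = 0.0379).

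The ratio of the summed CPM of the 53 genes to that of 61 S-phase genes was 1.46 to 1.52 in TGFBRII KO, 0.922 to 1.18 in CIS KO and 0.797 to 0.979 in WT at 24 h. Unstimulated libraries had ratios of 1.22 to 1.36 in TGFBRII KO, 1.18 to 1.25 in CIS KO and 1.29 to 1.49 in WT. In WT every ratio at 24 h was below every unstimulated ratio, and in TGFBRII KO the ratio at 24 h was above every unstimulated library of that genotype. In CIS KO the highest ratio at 24 h and the lowest unstimulated one were both 1.18 as rounded. Every unstimulated CIS KO ratio was already below every unstimulated WT ratio.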

How the data were processed

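The authors deposited raw read counts per gene for 31 libraries, keyed by Entrez identifier. Per the submitters' processing notes, FastQC, Trimmomatic, Subread, featureCounts, Picard and SAMtools were used with the mm10 genome, with versions and strand settings not given in the sources used here. Per the labels' protocols, libraries came from total RNA with a directional kit. Genes were matched to symbols for 25275 of 27179 identifiers, and the other 1904 hold 0.958% of counts.

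Groups follow the labelled genotype and treatment. Counts were fitted with edgeR 4.0.16 and limma 3.58.1 in R 4.3.3, over all 31 libraries in 9 groups that share one estimate of spread. Genes were kept by filterByExpr with a minimum count of 10, library sizes were scaled by TMM, and the quasi-likelihood F test was adjusted over 10275 genes (Benjamini-Hochberg, threshold 0.05). Standard errors are the log2 fold change divided by the square root of F. The scripts were tested on simulated data. Promoters are from the RefSeq table of GRCm38.p6. Tables and figures were made with Python 3.11.15, pandas 2.3.3 and matplotlib 3.10.9.

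Alternatives were RLE scaling, library size alone, no filter on low counts, DESeq2 1.42.0, library size as a covariate, only the libraries compared, the replicate number as a block, and leaving out each library. The members and lists were chosen with earlier results of these data known. Genes are named by a rule: the 2 members of each role with the highest mean CPM, members whose call goes against most members, and the 3 largest changes called in each comparison. Of the other lists, the 4 genes with the smallest p in WT at 24 h and any gene called against its list are named. Members outside this rule are given by their values in WT and CIS KO at 24 h. Total counts of 297561 to 1403005 per library limit the precision for members with few reads.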

Additional observations from a re-analysis of the deposited data

Results flagged for a closer look

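In 4 groups 1 library stood far from the others for a gene named above, among 105 groups of 4 libraries examined, where chance gives about 5% (the gap to the nearest library, divided by the range, was above Dixon's critical value). Plk1 was at 132 CPM in unstimulated WT replicate 3, against 176 to 179 CPM in the other 3. Incenp was at 166 CPM in CIS KO replicate 1 at 24 h, against 202 to 207 CPM in the others, and at 220 CPM in WT replicate 1 at 24 h, against 176 to 182 CPM. Foxm1 was at 31.3 CPM in WT replicate 2 at 24 h, against 17.9 to 19.3 CPM in the others.

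The 24 h response differed from that of WT, by the test of the difference itself in edgeR, for 49 of 53 genes in TGFBRII KO and for 36 of 53 in CIS KO. All of these differences were positive, and both comparisons use the same 8 WT libraries.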

How the results depend on the processing

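Counts below are of the 53 genes called. Over 7 other ways of fitting and the leaving out of each library, 224 of 292 counts stayed within 1.5 times the reported one. Single genes were run for 24 h against unstimulated in each genotype and for both response differences at 24 h. Of these values, 3157 of 3268 kept their side of the threshold. The 3157 include 26 values that were not called and changed sign. Steady under every alternative were WT at 24 h (52 to 53 without 1 library), TGFBRII KO against WT at 24 h (52), the TGFBRII KO response difference at 24 h (49 to 51), CIS KO at 4 h (27 to 35) and CIS KO at 24 h (29 to 42). Without 1 library, the other counts ran from 2 to 8 for WT at 4 h, 23 to 50 for WT at 24 h against 4 h, 2 to 8 for TGFBRII KO at 4 h, 10 to 25 for TGFBRII KO at 24 h against 4 h, and 0 to 2 for CIS KO at 24 h against 4 h. They ran from 0 to 3 for unstimulated TGFBRII KO against WT, 0 to 2 for the TGFBRII KO response difference at 4 h, 0 to 6 for unstimulated CIS KO against WT, 0 to 2 for CIS KO against WT at 4 h, 31 to 39 for CIS KO against WT at 24 h and 26 to 38 for the CIS KO response difference at 24 h. For TGFBRII KO against WT at 4 h the count was 1 each time, and it turned to 1 higher without WT replicate 4. With no filter on low counts, WT at 4 h had 10, TGFBRII KO at 24 h had 3, CIS KO at 24 h against 4 h had 5, unstimulated TGFBRII KO against WT had 4, TGFBRII KO against WT at 4 h had 2, its response difference had 1, unstimulated CIS KO against WT had 8 and CIS KO against WT at 4 h had 9. With library size alone, WT at 4 h had 11, CIS KO at 24 h against 4 h had 0 and unstimulated CIS KO against WT had 4. By DESeq2, TGFBRII KO had 4 at 4 h and 19 at 24 h against 4 h, CIS KO at 24 h against 4 h had 0, and TGFBRII KO and CIS KO against WT at 4 h had 0 each. With library size as a covariate, TGFBRII KO had 20 at 4 h and 2 at 24 h, CIS KO at 24 h against 4 h had 2, unstimulated TGFBRII KO against WT had 3 and at 4 h 4, unstimulated CIS KO against WT had 0 and at 4 h 6, and the CIS KO response difference at 24 h had 20. With only the libraries compared, TGFBRII KO had 20 at 4 h and 5 at 24 h, CIS KO at 24 h against 4 h had 0, TGFBRII KO against WT at 4 h had 0, and CIS KO against WT had 6 unstimulated, 0 at 4 h and 16 at 24 h. Deviations of same-numbered libraries correlated at -0.388 to 0.113 in WT and -0.232 to 0.25 in CIS KO. Those of differently numbered libraries correlated at -0.249 to 0.319 in WT and -0.292 to 0.359 in CIS KO. In TGFBRII KO the same-numbered libraries correlated at 0.0152 to 0.198 (median 0.0961) and the others at -0.21 to 0.0713 (median -0.0543). The numbers may therefore pair libraries in TGFBRII KO, and the main fit used no pairing. With the replicate number as a block, WT at 4 h had 3, CIS KO at 24 h against 4 h had 0 and unstimulated CIS KO against WT had 1, and WT at 24 h had 53. The causes of these moves were not tested. Depth limits Kif20a (0 to 21 counts per library), Mybl2 (0 to 18), Cdc25c (0 to 27) and Kif18b (1 to 31).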
